A study of Vitis vinifera with 36 samples.

Results

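Winter and summer berries of the white table grape 'Victoria' (Vitis vinifera) were compared at E-L 38, the harvest stage, gene by gene across the transcriptome. The comparison used 6 of the 36 libraries of the series, chosen by their labels: 3 libraries of winter-season berries and 3 libraries of summer-season berries, all of the 2014 vintage. The remaining 30 libraries, from 2 earlier stages of 'Victoria' (E-L 35, the onset of veraison, and E-L 36, its end) and from all 3 stages of the black table grape 'Muscat Hamburg', shared the estimate of spread, and 2 sets of them served for comparison. Under the double cropping system of South China, a vine is forced to fruit again after the summer harvest, so the same vineyard gives a summer and a winter crop in 1 year. Both groups came from vines grafted on 'SO4' and grown under rain shelters, and RNA was taken from whole berries with the seeds removed, many berries pooled per replicate. Each season was a single crop of a single vineyard, so season cannot be told apart from any other difference between those crops. The p-values measure the spread between libraries within a crop, estimated over all 36 libraries. Whether every library came from a separate berry sample was not tested. In RNA from a whole berry, fewer cells of a type and less RNA per cell cannot be told apart.

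Flavonoids are made from phenylalanine. Phenylalanine ammonia-lyase (PAL), the hydroxylase C4H that acts on cinnamate, and 4-coumarate:CoA ligase (4CL) make the phenylpropanoid precursor, and chalcone synthase (CHS), chalcone isomerase (CHI) and flavanone 3-hydroxylase (F3H) turn it into dihydroflavonols. From there flavonol synthase (FLS) leads to flavonols, while dihydroflavonol reductase (DFR) and leucoanthocyanidin dioxygenase (LDOX) lead towards flavanols and anthocyanins. White grapes such as 'Victoria' do not colour, because the MYB regulators that switch on the last steps of anthocyanin synthesis are inactive.

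The 6 libraries held between 7870429 and 9646560 estimated counts in winter and between 8471931 and 10957097 in summer. The 10 most abundant genes took 10.4% to 13.3% of the counts in winter libraries and 12.3% to 12.9% in summer libraries. Winter replicates 2 and 3 were almost the same library: their counts over 16195 genes differed with a chi-square of 1.45 per degree of freedom, where 1 is sampling noise alone. Of the 36 replicate pairs of the series, 8 lay under 2, and the other pairs lay between 2.51 and 57.7 with a median of 15. The 3 winter libraries of 'Victoria' at E-L 36 were likewise near-identical. For winter replicates 2 and 3 at E-L 38 the value was 1.5 in genes under 200 summed counts and 1.59 in genes of 2000 or more. Between winter replicates 1 and 2 it was 3.98 and 123. Over all genes compared it was 20 for that pair, within the range of 10.7 to 39.8 between summer replicates at E-L 38. Whether replicates 2 and 3 came from separate berry samples was not tested. The libraries were kept apart in the main fit, but the winter group may then hold little more than 2 independent samples. Counts were therefore also obtained with winter replicates 2 and 3 summed into 1 sample, and with the near-identical libraries of every group summed.

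Of 19736 genes tested, 2142 were higher and 3142 were lower in winter than in summer berries, which is 10.9% and 15.9% of the genes (edgeR quasi-likelihood test, Benjamini-Hochberg adjusted p of at most 0.05, fold change of at least 2). With winter replicates 2 and 3 summed, 2123 genes were higher and 3054 lower, and 2032 and 2975 of these were shared with the counts above. Leaving out winter replicate 1, which was not near-identical to the other winter libraries, left 2071 higher and 2949 lower. A fit of the 6 libraries only, with the spread taken from them alone, called 1751 higher and 2671 lower. The adjusted p alone was passed by 10751 genes, 54.5% of those tested. Over all genes the log2 fold change had a median of -0.03. In total 5284 genes, or 26.8%, passed both conditions.

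By the adjusted p alone, 5249 genes (26.6%) were higher and 5502 (27.9%) lower in winter. Among genes past both conditions, changes towards lower expression in winter were more frequent and larger. The median log2 fold change was 1.62 among the genes that were higher and -1.81 among those that were lower, or 1.54 and 1.66 in size when genes at or under 3 counts in every library of 1 season were set to the bound that 3 counts allow. A change of at least 8-fold, or 3 on the log2 scale, was fitted for 357 higher and 579 lower genes. The 2142 genes that were higher took 15.2% to 15.5% of the summed FPKM (fragments per kilobase of transcript, scaled to library depth) in winter libraries and 4.24% to 4.86% in summer libraries. The 3142 genes that were lower took 6.32% to 7.13% in winter libraries and 21.3% to 22.5% in summer libraries. FPKM did not overlap between the seasons for 2049 of the 2142 higher genes, and for 2944 of the 3142 lower genes, against 28.5% and 28% of all genes tested that lay wholly above or wholly below. Winter replicate 1 lay outside the summer range on the called side for 98.0% of the higher and 96.0% of the lower genes. It was the winter library nearest to summer for 26.6% of the higher and 37% of the lower genes. All of these shares use the same values as the calls, those of winter replicate 1 among them, and are a description.

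**Figure D1:**
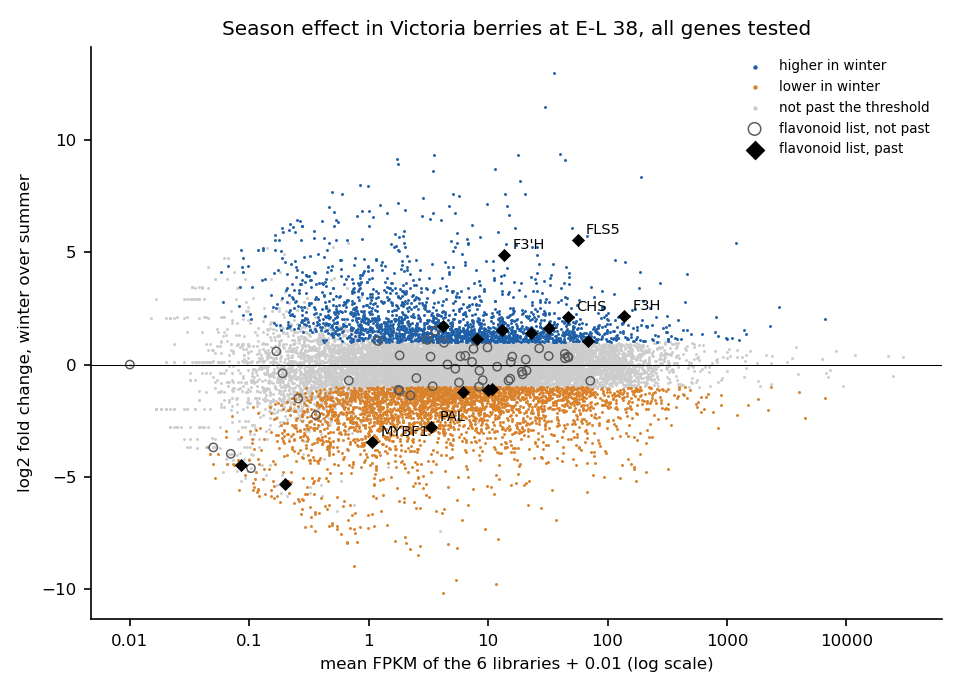
Log2 fold change, winter over summer, against the mean FPKM of the 6 'Victoria' libraries at E-L 38 on a log scale, for 19736 genes. Blue points are the 2142 genes higher in winter, orange points the 3142 lower in winter, and diamonds and circles are genes of the flavonoid list past and not past the threshold. FLS5 and 1 F3'H copy lie highest among the list, at 5.54 and 4.87.

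The shares past the threshold ranged with expression level between 3.23% and 18.8% higher and between 5.54% and 20.2% lower. Among 3090 genes with a mean of 0.1 to 1 FPKM, 13.4% were higher and 20.2% lower, and among 8237 genes at 1 to 10 FPKM, 12% were higher and 17.8% lower. Among 7037 genes with a mean of 10 to 100 FPKM, 8.82% were higher and 12.2% lower, the smallest shares apart from the 433 genes under 0.1 FPKM. Among the 891 genes at 100 to 1000 FPKM, 10.7% were higher and 18.4% were lower. Of the 48 genes above 1000 FPKM, 9 were higher and 8 were lower, or 18.8% and 16.7%.

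Some genes were expressed in 1 season only, as far as the depth shows. In 25 of the higher genes every winter library had at least 30 counts while no summer library had more than 3. The reverse held for 19 of the lower genes. The largest of these changes belonged to identifiers for which no annotation was used here. VIT_207s0104g01340 had 83.6, 65.2 and 64.2 FPKM in winter libraries and was at 0 in the 3 summer libraries. With 3 counts per library as the floor, its expression was at least 308-fold higher in winter (adjusted p = 9.8e-10). VIT_219s0014g00440 had 73.8, 49.5 and 56.4 FPKM in winter libraries and was at 0 in summer libraries. It was at least 108-fold higher (adjusted p = 2.9e-10). VIT_208s0007g07990 was at 0 in all 3 winter libraries, against 34.3, 21.9 and 13.6 FPKM in summer libraries, which makes it at least 29.3-fold lower (adjusted p = 9.5e-09). Its summer counts were not whole, so its level is uncertain. VIT_214s0060g02730 was also at 0 in winter, against 15.7, 5.84 and 10.8 FPKM in summer, and was at least 25.9-fold lower (adjusted p = 0.00013). All 4 identifiers moved in the same direction in 'Victoria' at E-L 36, by a fitted log2 fold change of 11.33, 7.27, -4.75 and -4 in the order above.

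Genes past the threshold were spread over every chromosome named in the gene identifiers. The share of higher genes ran between 8.03% on chromosome 13 and 15.8% on chromosome 2, and the share of lower genes between 13.2% on chromosome 15 and 19.7% on chromosome 12. Chromosome 2, which carries the MYBA genes of berry colour, was the only 1 of the 19 where higher genes (120 of 760) outnumbered lower genes (104 of 760).

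**Figure D2:**
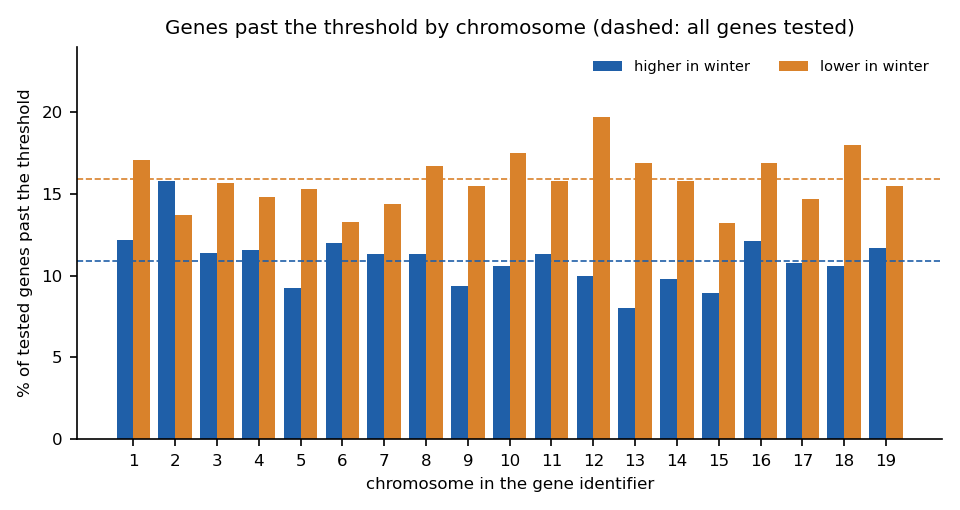
Percent of tested genes higher (blue) and lower (orange) in winter, for each of the 19 chromosomes in the gene identifiers. Dashed lines give the shares over all genes, 10.9% and 15.9%. Chromosome 2 has the tallest blue bar, 15.8%, and chromosome 12 the tallest orange bar, 19.7%.

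Genes next to each other in identifier order often changed together. Scaffold numbers were compared without their last digit, so a pair or run of neighbours can cross from 1 scaffold to another. Of 2107 higher genes with a tested neighbour following, 18.4% were followed by another higher gene, where 10.9% of all genes were higher. A lower gene followed in 13.2%. Of 3082 lower genes, 25.7% were followed by another lower gene, where 15.9% of all genes were lower, and 7.2% were followed by a higher gene. Runs of at least 5 neighbours that changed in 1 direction numbered 6 for higher and 24 for lower genes. The longest was a run of 8 lower genes on chromosome 11, with log2 fold changes between -6.24 and -3.49 and mean levels of 0.133 to 12.1 FPKM in winter and 4.09 to 137 FPKM in summer. On chromosome 7, 6 neighbours were higher, with log2 fold changes of 1.01 to 3.30. Neighbouring copies of 1 gene family can share reads, and the part of this in the runs was not tested.

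The study lists 64 genes of flavonoid synthesis and its regulation, and all 64 were tested. The list was drawn up by the study on these same samples, so its counts are not independent evidence. In winter 10 of the 64 were higher and 7 lower, or 15.6% and 10.9% (17 in all, beside 26.8% of all genes in either direction), beside 10.9% and 15.9% of all genes. The median log2 fold change of the list was 0.00, beside -0.03 for all genes. FPKM lay wholly above summer in winter for 19 of the 64 and wholly below for 11, beside 28.5% and 28% of all genes tested. With winter replicates 2 and 3 summed, 9 genes were higher and 3 lower. Without winter replicate 1 the counts were 10 and 9, and without summer replicate 3 they were 9 and 3. Among the 17 genes past the threshold, 9 passed under every alternative that tested them. For 2 of these 9, F3'H VIT_203s0063g01690 and MYBF1, that was 19 alternatives in place of 20. The common steps (PAL to F3H) had 5 higher and 3 lower of 23, the branches after F3H had 2 higher and 3 lower of 23, and the regulators had 3 higher and 1 lower of 18.

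The steps from CHS to F3H were higher in winter in 4 of their 6 genes, beside 10.9% of all genes, on this list that the study chose. CHS makes the first flavonoid, a chalcone. The CHS gene VIT_214s0068g00920 had 90.6, 67.7 and 70.6 FPKM in winter libraries and 12.2, 20.9 and 19.1 FPKM in summer libraries. The log2 fold change was 2.11 ± 0.33 (SE, adjusted p = 4.6e-06), and every winter library lay more than 3-fold above the highest summer library. A second CHS gene, VIT_205s0136g00260, had 25.9, 17.2 and 15.1 FPKM in winter and 7.19, 2.74 and 9.59 FPKM in summer. Its log2 fold change was 1.52 ± 0.47 (adjusted p = 0.0072). The groups did not overlap, but without summer replicate 2, its lowest library, the log2 fold change was 1.17 (adjusted p = 0.052). CHI closes the chalcone to a flavanone. VIT_213s0067g03820 (CHI) had 64.3, 40.4 and 41.4 FPKM in winter and 16.4, 15.01 and 14.95 FPKM in summer. It was higher by 1.62 ± 0.21 on the log2 scale (adjusted p = 2.7e-07), with winter replicate 1 highest. F3H makes dihydroflavonols from flavanones. VIT_218s0001g14310 (F3H) was the most abundant gene of the list in winter, with 276, 202 and 202 FPKM in winter libraries and 63.2, 49.1 and 37.6 FPKM in summer libraries. The log2 fold change was 2.15 ± 0.19 (adjusted p = 2.0e-10). All 3 winter libraries lay more than 3-fold above the highest summer library.

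PAL, the entry enzyme, moved differently among its 11 genes. Only VIT_213s0019g04460 was higher in winter, with 11.5, 3.52 and 4.49 FPKM in winter libraries and 1.98, 1.12 and 2.50 FPKM in summer libraries (log2 fold change 1.71 ± 0.32, adjusted p = 4.6e-05). Winter replicate 1 carried much of this difference, though both other winter libraries also lay above every summer library. Summed over the 11 genes, PAL expression was 55.6, 26 and 26.1 FPKM in winter and 58.5, 43.0 and 46.8 FPKM in summer, so that winter replicate 1 lay within the summer range and the other winter libraries below it. VIT_208s0040g01710 had 7.33, 2.00 and 2.19 FPKM in winter and 8.81, 5.71 and 10.6 FPKM in summer. Its log2 fold change of -1.21 ± 0.52 (adjusted p = 0.049) did not pass in 12 of 20 alternatives, and was -0.98 (adjusted p = 0.16) with winter replicates 2 and 3 summed. It also failed without either of them (-0.92 without winter replicate 2, -0.95 without winter replicate 3), and without summer replicate 1 (-1.18) or 3 (-1). Counts of VIT_208s0040g01710 were not whole in any of the 6 libraries, so its level is uncertain. VIT_216s0039g01300 had 2.76, 0.00 and 0.05 FPKM in winter and 6.22, 5.67 and 5.22 FPKM in summer. Here the log2 fold change was -2.77 ± 1.13 (adjusted p = 0.040), and -2.44 (adjusted p = 0.11) with winter replicates 2 and 3 summed. Leaving out any library other than winter replicate 1 also took the adjusted p past 0.05, with log2 fold changes of -2.83 to -2.18. The 7 PAL copies on chromosome 16 had estimated counts that were not whole, as reads shared between copies were divided, so the level of each copy is uncertain. Their sum was 28.1, 14.4 and 14.02 FPKM in winter and 38.8, 31.2 and 28.5 FPKM in summer. The groups did not overlap, but winter replicate 1 lay just under summer replicate 3, and the sum was not tested. Of all genes tested, 28% lay wholly below summer in winter.

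The next enzymes, C4H and 4CL, were not higher in winter. C4H VIT_206s0004g08150 had 11.1, 5.21 and 4.79 FPKM in winter and 9.85, 9.96 and 13.1 FPKM in summer. It passed the adjusted p but not the fold condition (log2 fold change -0.69 ± 0.26, adjusted p = 0.026). 4CL VIT_211s0052g01090 had 11.5, 4.68 and 6.01 FPKM in winter and 13.6, 12.7 and 15.9 FPKM in summer, with a log2 fold change of -1.08 ± 0.42 (adjusted p = 0.029). The call for this 4CL gene ended without summer replicate 1 (-1.10, adjusted p = 0.050), summer replicate 3 (-0.98), winter replicate 2 (-0.85) or winter replicate 3 (-0.99), and with winter replicates 2 and 3 summed (-0.94, adjusted p = 0.097). The most abundant 4CL gene, VIT_216s0050g00390, had 46.1, 56.6 and 54.9 FPKM in winter and 59.8, 36.0 and 29.4 FPKM in summer, and the groups overlapped.

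FLS5 (VIT_218s0001g03430), a flavonol synthase, had the largest change of the list. It had 115, 105 and 111 FPKM in winter libraries and 4.02, 1.33 and 1.32 FPKM in summer libraries, a log2 fold change of 5.54 ± 0.26 (adjusted p = 8.7e-16). The 3 winter libraries were close together, and across the alternatives the log2 fold change lay between 5.21 and 6.27. FLS4 (VIT_218s0001g03470), its neighbour in the list, had 9.32, 3.14 and 3.72 FPKM in winter and 0.77, 2.24 and 2.45 FPKM in summer and did not pass (log2 fold change 1.52 ± 0.83, adjusted p = 0.12). The remaining FLS gene, VIT_211s0118g00390, was the most abundant gene of the list in summer. It had 75.7, 44.6 and 45.0 FPKM in winter and 56.7, 86.5 and 122 FPKM in summer, and was past the adjusted p without the fold condition (log2 fold change -0.72 ± 0.24, adjusted p = 0.012). Summed over the 3 FLS genes, expression was 200, 152 and 159 FPKM in winter and 61.5, 90.03 and 125 FPKM in summer, without overlap. Most of that sum was FLS5 in each winter library, and most of it was VIT_211s0118g00390 in each summer library.

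Flavonoid 3'-hydroxylase (F3'H) adds the hydroxyl group that turns kaempferol-type into quercetin-type flavonoids. VIT_203s0063g01690 (F3'H) had 4.40, 37.8 and 37.01 FPKM in winter and 1.59, 0.39 and 0.66 FPKM in summer, a log2 fold change of 4.87 ± 0.67 (adjusted p = 5.9e-07). Winter replicate 1 was far below the other winter libraries but above all summer libraries, and its counts were not whole in all 6 libraries, so its level is uncertain. The other F3'H gene of the list, VIT_209s0002g01090, with whole counts in the 6 libraries, had 18.7, 18.3 and 16.97 FPKM in winter and 16.6, 11.7 and 13.3 FPKM in summer (log2 fold change 0.36 ± 0.30, adjusted p = 0.33). The 6 genes of flavonoid 3',5'-hydroxylase, which leads to blue-type pigments, summed to 0.28, 0.51 and 0.64 FPKM in winter and 0.60, 1.41 and 0.87 FPKM in summer, and none passed.

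Towards flavanols and anthocyanins, the DFR, LDOX and UFGT genes did not pass both conditions. The abundant DFR genes VIT_215s0048g01000 and VIT_218s0001g12800 had log2 fold changes of 0.48 ± 0.25 and 0.38 ± 0.22 (adjusted p = 0.11 and 0.14), and LDOX VIT_208s0105g00380 had 0.28 ± 0.28 (adjusted p = 0.40). Another DFR gene, VIT_215s0048g01010, had 4.44, 3.79 and 4.31 FPKM in winter and 6.89, 7.95 and 6.79 FPKM in summer. This was a log2 fold change of -0.80 ± 0.20 (adjusted p = 0.0011), below the fold condition. UFGT (VIT_216s0039g02230), which attaches glucose to anthocyanidins, had 9.22, 6.49 and 7.52 FPKM in winter and 6.87, 8.93 and 11.7 FPKM in summer (log2 fold change -0.27 ± 0.18, adjusted p = 0.22). LAR2 (VIT_217s0000g04150), a leucoanthocyanidin reductase that makes catechin, had 10.16, 3.86 and 3.84 FPKM in winter and 10.21, 14.7 and 17.4 FPKM in summer. It was lower by 1.14 ± 0.34 on the log2 scale (log2 fold change -1.14, adjusted p = 0.0051). Winter replicate 1 lay just under the lowest summer library, and the fold fell under 2 with winter replicates 2 and 3 summed (-0.96) and without winter replicate 2 (-0.94), winter replicate 3 (-0.93) or summer replicate 3 (-0.96). LAR1 (VIT_201s0011g02960) had a log2 fold change of 0.35 ± 0.26 (adjusted p = 0.25).

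The genes that decorate anthocyanins were near the limit of detection in both seasons. AOMT (VIT_201s0010g03510), which methylates anthocyanins, had no count in winter libraries and at most 5.85 counts in a summer library, or 0.08, 0.59 and 0.46 FPKM. Although past the threshold (adjusted p = 0.0060), it was only at least 1.3-fold lower once 3 counts were taken as the floor. 3AT (VIT_203s0017g00870), the anthocyanin acyltransferase, had no count in winter and 0, 5 and 2 counts in summer libraries, too few for a fold (adjusted p = 0.0067, and 0.12 without summer replicate 2). MYBA1 (VIT_202s0033g00410), the activator of the last step of anthocyanin synthesis in coloured grapes, had no count in 5 of the 6 libraries.

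Among the regulators, MYBA2 and MYBA3, which lie beside MYBA1, were higher in winter. MYBA2 (VIT_202s0033g00390) had 71.4, 100.3 and 108 FPKM in winter and 65.0, 39.9 and 29.4 FPKM in summer, a log2 fold change of 1.06 ± 0.29 (adjusted p = 0.0026). The groups did not overlap, but the lowest winter and highest summer libraries were close, and the fold fell under 2 with winter replicates 2 and 3 summed (0.96) and without summer replicate 2 (0.98), summer replicate 3 (0.83), winter replicate 2 (0.97) or winter replicate 3 (0.91). MYBA3 (VIT_202s0033g00450) had 14.9, 40.2 and 43.1 FPKM in winter and 18.4, 10.9 and 8.58 FPKM in summer (log2 fold change 1.39 ± 0.39, adjusted p = 0.0033). Winter replicate 1 lay below summer replicate 1, so the groups overlapped. Both genes had counts that were not whole in all 6 libraries, so the share of each copy is uncertain.

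MYBF1 (VIT_207s0005g01210), the MYB activator of flavonol synthase genes in grape, was lower in winter while FLS5 was higher. It had 0, 0.18 and 0.30 FPKM in winter libraries and 2.32, 2.32 and 1.20 FPKM in summer libraries, a log2 fold change of -3.46 ± 0.59 (adjusted p = 1.5e-05). No winter library reached the summer range, but the level was low throughout, with 0 and 3 counts in winter replicates 1 and 2. The light-response regulators moved less. COP1-1 (VIT_212s0059g01420), a ubiquitin ligase that represses light responses, had 11.1, 11.1 and 10.9 FPKM in winter and 4.89, 4.77 and 5.28 FPKM in summer. The log2 fold change was 1.13 ± 0.10 (adjusted p = 2.7e-10), the smallest standard error of the list, and winter replicate 1 did not stand apart here. COP1-2 (VIT_210s0523g00030) and the ultraviolet-B receptor UVR1 (VIT_207s0031g02560) were higher by 0.70 ± 0.20 and 0.76 ± 0.22 on the log2 scale (adjusted p = 0.0037 and 0.0050), under the fold condition. HY5 (VIT_204s0008g05210), the transcription factor that COP1 degrades in Arabidopsis, had 19.3, 15.1 and 13.97 FPKM in winter and 21.3, 27.7 and 19.4 FPKM in summer and did not pass (log2 fold change -0.43 ± 0.23, adjusted p = 0.11).

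Some MYB, bHLH and WD40 genes of the list passed the adjusted p but not the fold condition. MYB5b (VIT_206s0004g00570) and the bHLH gene MYCA1 (VIT_215s0046g02560) had log2 fold changes of 0.72 ± 0.11 and 0.97 ± 0.15 (adjusted p = 1.8e-06 and 3.3e-06). The repressor MYBC2-L1 (VIT_201s0011g04760) and the WD40 gene WDR (VIT_216s0098g00870) had log2 fold changes of -0.71 ± 0.25 and -0.63 ± 0.14 (adjusted p = 0.020 and 0.00041). In all, 9 genes of the list passed the adjusted p with a fold under 2. The other 38 genes outside the threshold did not pass the adjusted p. Among them the bHLH gene MYC1 (VIT_207s0104g00090), the repressor MYB4a (VIT_203s0038g02310) and the HY5 homologue HYH (VIT_205s0020g01090) had log2 fold changes of 0.23 ± 0.15, 0.36 ± 0.22 and 0.40 ± 0.32. Only 3 of the 64 genes, all of flavonoid 3',5'-hydroxylase, had no more than 3 counts in any of the 6 libraries.

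**Figure D3:**
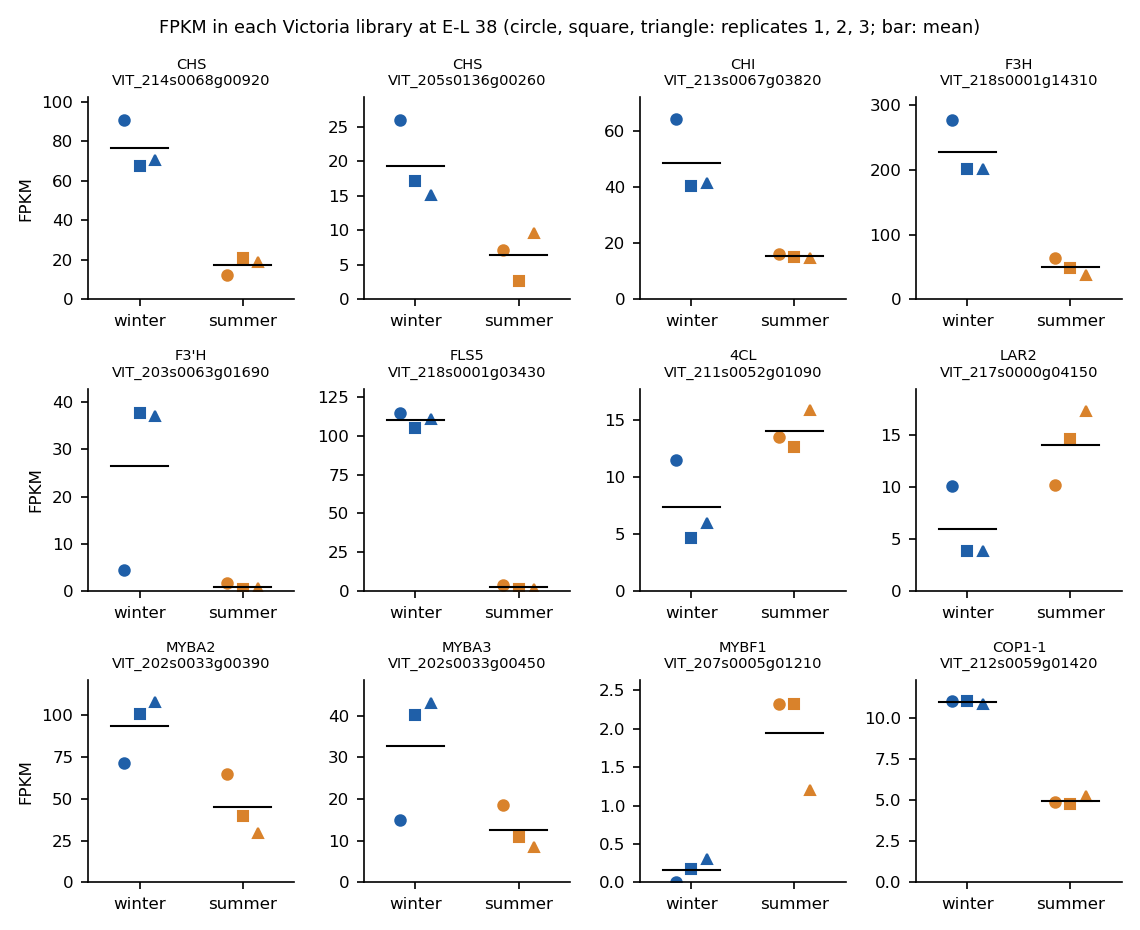
FPKM in each 'Victoria' library at E-L 38 for 12 genes of the flavonoid list, winter (blue) left of summer (orange). Circles, squares and triangles are replicates 1, 2 and 3, and bars are group means. Squares and triangles of winter nearly coincide in most panels, and winter replicate 1 sits apart for F3'H (4.40 FPKM, against 37.8 and 37.01).

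Whether the season effect at harvest differed from that at the end of veraison was tested as the effect at E-L 38 minus the effect at E-L 36. The difference was positive and past the threshold for 322 genes (1.63% of 19736) and negative for 526 (2.67%). These counts were far lower with the near-identical libraries of every group summed. In that run the 3 winter libraries at E-L 36 counted as 1 sample. Libraries of other groups were summed too, and the part of each in the drop was not tested. On the list, 1 gene had a positive and 8 had a negative difference, and 1 and 2 genes after summing.

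FLS5 was the list gene with the positive difference. At E-L 36 it had 59.2, 54.8 and 53.2 FPKM in winter and 5.91, 7.88 and 6.58 FPKM in summer, so the season effect at E-L 38 was larger by 2.53 ± 0.33 on the log2 scale (adjusted p = 2.2e-05). From E-L 36 to E-L 38, winter levels were higher and summer levels lower. The difference passed in all alternatives, with 2.25 as its lowest value. bZIPC22 (VIT_207s0005g01450), a bZIP factor linked to flavonol synthesis in grape, overlapped between the seasons at harvest but not before. It had 18.5, 16.1 and 17 FPKM in winter and 27.8, 17.9 and 17.5 FPKM in summer at E-L 38. At E-L 36 the values were 76.3, 78.7 and 79.2 FPKM in winter and 17.1, 25.8 and 20.6 FPKM in summer, and the difference between the stages was -2.25 ± 0.36 (adjusted p = 0.00024). DFR VIT_215s0048g01010 changed direction, with 9.26, 9.01 and 10.6 FPKM in winter and 7.23, 5.56 and 4.38 FPKM in summer at E-L 36 (difference -1.58 ± 0.27, adjusted p = 0.00049).

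The season effect on the MYBA genes was smaller at harvest. At E-L 36, MYBA2 had 242, 250.1 and 239 FPKM in winter and 43.9, 30.5 and 18.6 FPKM in summer, and the effect at E-L 38 was lower by 1.94 ± 0.40 (difference -1.94, adjusted p = 0.0028). MYBA3 at E-L 36 had 98.5, 97.0 and 97.7 FPKM in winter and 10.4, 9.22 and 5.32 FPKM in summer (difference -2.19 ± 0.55, adjusted p = 0.012). In both genes summer levels at the 2 stages overlapped, and winter levels were lower at harvest. Neither difference passed with the near-identical libraries of every group summed, where only bZIPC22 and this DFR gene kept a negative one, and that of MYBA3 was also lost without summer replicate 1 (-1.80, adjusted p = 0.053). In CHS VIT_214s0068g00920 the difference was -1.42 ± 0.46 (adjusted p = 0.049). It was lost without any 1 of summer replicates 2 and 3 and winter replicates 1, 2 and 3, at values of -1.50 to -1.27.

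'Muscat Hamburg' at E-L 38, a coloured grape harvested from the same 2 crops of the year, showed a different season effect in more genes. The effect in 'Victoria' minus that in 'Muscat Hamburg' was positive for 693 genes (3.51% of 19736) and negative for 935 (4.74%), and 520 and 608 with near-identical libraries summed. On the list it was positive for 3 and negative for 17 genes, and for 2 and 9 after summing.

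FLS5 again had the largest positive difference. In 'Muscat Hamburg' it had 98.4, 126 and 154 FPKM in winter and 39.7, 28.4 and 38.9 FPKM in summer, which made the season effect in 'Victoria' larger by 3.67 ± 0.32 on the log2 scale (adjusted p = 1.1e-08). Winter levels of the 2 varieties overlapped, and summer levels were lower in 'Victoria'. HY5 had 3.39, 3.23 and 3.21 FPKM in winter and 22.2, 17.6 and 22.8 FPKM in summer in 'Muscat Hamburg' (difference 1.73 ± 0.34, adjusted p = 0.00077). Its summer levels overlapped between the varieties, and it was the winter level that stood higher in 'Victoria'.

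In a C4H and a 4CL gene the season effect had opposite signs in the 2 varieties. C4H VIT_206s0004g08150 had 62.7, 86.2 and 77.9 FPKM in winter and 29.97, 30.5 and 28.1 FPKM in summer in 'Muscat Hamburg' (difference -2.11 ± 0.36, adjusted p = 0.00015). 4CL VIT_211s0052g01090 had 18.3, 22.6 and 13.4 FPKM in winter and 9.46, 4.34 and 5.55 FPKM in summer (difference -2.64 ± 0.59, adjusted p = 0.0024). For 7 of the 11 PAL genes the difference was negative and past the threshold, beside 4.74% of all genes. Each of these 7 had counts that were not whole in 'Victoria' libraries at E-L 38, so the level of each copy is uncertain. Of these 7, 6 lost the call with near-identical libraries of every group summed (adjusted p = 0.060 to 0.134), all but VIT_216s0039g01300. Of those 6, all but VIT_216s0039g01100 also lost it without single libraries: winter replicate 3 in each of the 5, and for some winter replicate 2 or a summer replicate, with differences then of -3.0 to -1.93. DFR VIT_215s0048g01000 had 15.8, 24.3 and 19.6 FPKM in winter and 1.52, 0.81 and 3.08 FPKM in summer in 'Muscat Hamburg', against overlapping seasons in 'Victoria' (difference -2.996 ± 0.41, adjusted p = 8.6e-06).

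**Figure D4:**
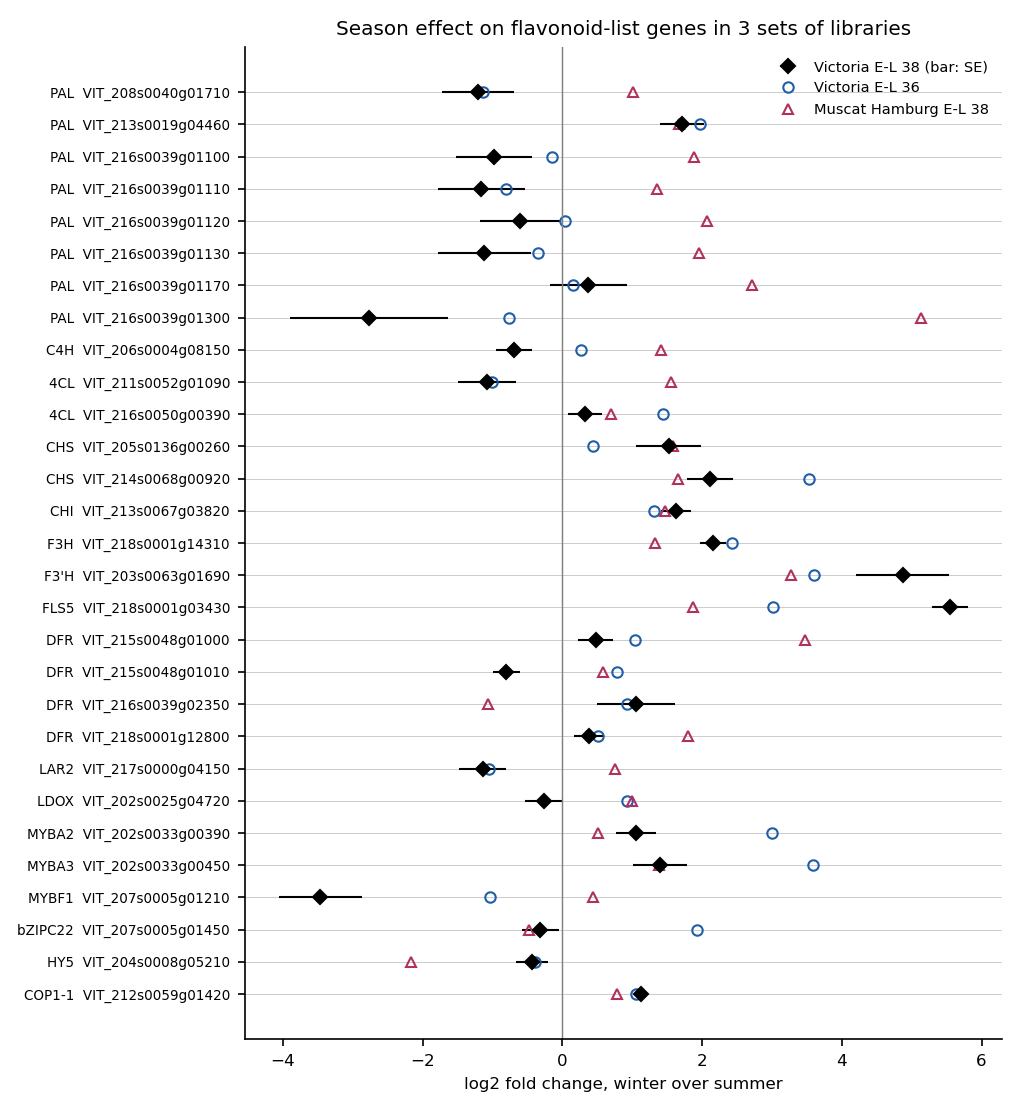
Log2 fold change, winter over summer, of 29 genes of the flavonoid list that passed the threshold in the season effect or in either difference, AOMT and 3AT left out. Diamonds with standard errors are 'Victoria' at E-L 38, circles 'Victoria' at E-L 36 and triangles 'Muscat Hamburg' at E-L 38. FLS5 lies at 5.54, 3.01 and 1.87, and the PAL genes of chromosome 16 lie to the right of zero in 'Muscat Hamburg' only, apart from VIT_216s0039g01170 and VIT_216s0039g01120.

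Most genes with a season effect in 'Victoria' at harvest had it in the same direction before harvest. Of the 2142 higher genes, 1226 (57.2%) were also higher in winter at E-L 36, which is 62.4% of the genes higher there, and 6 were lower there. Of the 3142 lower genes, 1898 (60.4%) were also lower at E-L 36, or 70.6% of the genes lower there, and 17 were higher. Among all 19736 genes tested, 1965 were higher and 2689 lower at E-L 36, and 1757 and 2182 in 'Muscat Hamburg' at E-L 38. The winter libraries at E-L 36 were near-identical, so the calls there may rest on little more than 1 winter sample. With 'Muscat Hamburg' at E-L 38, 984 higher genes (45.9% of those in 'Victoria' and 56% of those in 'Muscat Hamburg') and 1412 lower genes (44.9% and 64.7%) were shared, and 28 and 49 genes were past the threshold in the opposite direction. In all 3 sets of libraries, which have no library in common, 720 genes were higher and 1049 were lower in winter.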

How the data were processed

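Berry RNA had been sequenced by the authors as single reads and aligned to the grapevine 12X V2 genome (the submitters' processing notes name Bowtie, the version is not given in the sources used here). The authors deposited 1 list per library with an estimated count (expected count) and an FPKM value per gene. Genes missing from a list were set to 0, and estimated counts were rounded to whole numbers. The 36 unlabelled columns of a series-wide table were not used. Of the listed genes, 19736 of 28119 passed the filterByExpr function of edgeR 4.0.16 (R 4.3.3). A quasi-likelihood model with TMM normalization was fitted to all 36 libraries in 12 groups, and p-values were adjusted by Benjamini and Hochberg over all genes tested. Genes were called at a 2-fold change or more with an adjusted p up to 0.05, the limits of the study, which used DESeq2. Standard errors were derived from the F statistic. A group at or under 3 counts in every library was taken as being at the floor. Floors and test p-values cover counting error and the spread between these libraries only.

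Alternatives were DESeq2 1.42.0, limma 3.58.1 on log2(FPKM + 1) and log2(FPKM + 0.1), other normalizations, filters and thresholds, a replicate block, thinning to the lowest total of 5624443, a fit of the 6 libraries, and each of the 6 left out. Both summed-library settings were chosen after seeing the data. The scripts were tested on simulated counts. The members and gene lists were chosen with earlier results of these data known. The rule was to name annotated genes with the largest changes past the threshold and the most abundant. No table used here describes the gene identifiers, so annotation covers only the 64 genes the study names. Wider keyword lists and cell type markers could not be applied. Outside the rule, further list genes and the identifiers without annotation were named after their values were seen.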

Additional observations from a re-analysis of the deposited data

Results flagged for a closer look

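The season effect differed by a direct test between stages or between varieties in the following results. No explanation was tested. For E-L 38 minus E-L 36 in 'Victoria', 322 genes had a positive and 526 a negative difference. On the flavonoid list the log2 difference was 2.53 for FLS5 (VIT_218s0001g03430), -1.11 for 4CL VIT_216s0050g00390, -1.42 for CHS VIT_214s0068g00920, -1.58 for DFR VIT_215s0048g01010 and -1.20 for LDOX VIT_202s0025g04720. Among regulators it was -1.94 for MYBA2, -2.19 for MYBA3, -2.43 for MYBF1 and -2.25 for bZIPC22. Those of 4CL, CHS, LDOX and MYBF1 did not pass under 9 or more of their alternatives, including both settings with near-identical libraries summed.

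For 'Victoria' minus 'Muscat Hamburg' at E-L 38, 693 genes had a positive and 935 a negative difference. On the list it was positive for FLS5 (3.67), DFR VIT_216s0039g02350 (2.12) and HY5 (1.73). Negative differences in PAL were -2.21 for VIT_208s0040g01710, -2.86 for VIT_216s0039g01100, -2.52 for VIT_216s0039g01110, -2.67 for VIT_216s0039g01120, -3.08 for VIT_216s0039g01130, -2.35 for VIT_216s0039g01170 and -7.90 for VIT_216s0039g01300. The last of these genes was at 0, 0 and 0.33 FPKM in 'Muscat Hamburg' summer libraries, so its size depends on how the fit treats zeros. The calls of the first 6 of these PAL genes were lost in 8, 2, 10, 4, 6 and 12 of 19 alternatives, in the order given. DFR VIT_216s0039g02350 rested on 6, 6 and 7 counts in 'Victoria' winter libraries and 3, 2 and 5 in summer libraries, and lost its call in 7 of 18 alternatives, including 4 that left out a single library (1.96 to 2.12) and thinning (1.55, adjusted p = 0.344). After PAL, differences were -2.11 for C4H VIT_206s0004g08150 and -2.64 for 4CL VIT_211s0052g01090. In the branches they were -2.996 for DFR VIT_215s0048g01000, -1.38 for DFR VIT_215s0048g01010, -1.42 for DFR VIT_218s0001g12800, -1.90 for LAR2 and -1.26 for LDOX VIT_202s0025g04720. MYBF1 had a difference of -3.90. AOMT (-6.30) and 3AT (-4.68) had no count in 'Victoria' winter libraries, so these fitted values are no measure of size. The calls of LAR2, LDOX and 3AT were lost in 1 of 19, 2 of 19 and 6 of 18 alternatives.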

How the results depend on the processing

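Across settings, no gene past the threshold for the season effect at E-L 38 was called in the opposite direction. With at least 10 counts required in each of the 6 libraries, which drops genes that are off in 1 season, 1188 genes were higher and 1961 lower. With limma on log2(FPKM + 1), which shrinks changes of low genes, 1414 were higher and 2016 lower. Without a fold condition, 5249 were higher and 5502 lower. Leaving out 1 library at a time gave 2029 to 2228 higher and 2949 to 3097 lower. For E-L 38 minus E-L 36, counts were 43 and 85 with near-identical libraries of every group summed, 873 and 876 without a fold condition, and 149 and 229 at an adjusted p of 0.01. Leaving out 1 library gave 252 to 332 and 435 to 541. For 'Victoria' minus 'Muscat Hamburg', 608 were lower with near-identical libraries summed, and counts were 1694 and 1622 without a fold condition and 416 and 485 at an adjusted p of 0.01. Leaving out 1 library gave 604 to 693 and 802 to 938. Same-numbered winter and summer libraries did not deviate together from their group means (r of -0.23, -0.01 and -0.16). Deviations within a group cancel out, and winter replicates 2 and 3 were near-identical, so these values cannot exclude a pairing. A replicate block gave 2123 higher and 3143 lower genes. Thinning all libraries to 5624443 counts left 1973 higher and 2908 lower. A limit is the winter group, where replicates 2 and 3 may count as little more than 1 sample.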

Other observations

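Gene models with several transcripts gave fewer calls than those with 1 transcript. Among 7979 tested genes with several transcripts, 9.79% were higher and 12.9% lower in winter, and among 11757 genes with 1 transcript, 11.6% were higher and 17.9% lower. The deposited lists also give each gene a length weighted over its transcripts, which can differ between libraries when transcript use differs. Of 4391 genes with several transcripts and at least 100 counts in each of the 6 libraries, 12 had a longer and 12 a shorter length in winter by at least 0.25 on the log2 scale without overlap between the seasons. Of these 24 genes, 6 were past the threshold for the season effect. The values are a description, with no test.

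Summer replicates 1, 2 and 3 at E-L 38 had r = 0.992, 0.992 and 0.990 with the mean of the summer libraries at E-L 36, across genes on log2(CPM + 1). With the mean of the other summer libraries at E-L 38, r was 0.988, 0.995 and 0.990. That mean left out the library itself and so rested on fewer libraries than the mean at E-L 36. The values therefore cannot be compared directly. Genes are not independent replicates, and the difference was not tested. The labels were kept as given.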
